A study of Mus musculus with 2 samples.

Results

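Complement and coagulation factors are the plasma proteases, cofactors and inhibitors that the liver secretes to clot blood and to mark and lyse microbes. A list of 37 mouse genes for these factors was examined, and a gene entered where at least 1 probe set of the array names that gene alone. This held for 35 of the 37, out of 12393 genes named in this way. They comprised 20 of the 21 coagulation genes and 15 of the 16 complement genes. Cpb2 and C4b had no such probe set and were left out. All 35 reached the minimum signal described below on both arrays, so no member was lost to the filter.

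The livers are labelled as those of female mice homozygous for a knockout of apolipoprotein E, 2 months old and of C57BL/6J background. Diet OO was chow carrying olive oil at 10% (w/w). In diet MAOO the same share of oil was enriched with maslinic acid, a triterpene found in olives. Each was fed for 4 weeks. By the labels, the knockout, the sex, the chow and the added oil were shared by both groups, and the study's question was what maslinic acid adds to the oil. The Apoe signals given below go against the shared knockout, so the arrays can differ in more than the diet. The study describes 6 mice per diet, but the data are 1 array of total liver RNA per diet. The labels do not say whether an array holds RNA of 1 mouse or of a pool. A single array per diet allows no test between diets, so every difference is described by its size alone.

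In clotting, tissue injury or surface contact starts a chain of serine proteases that ends in thrombin, which cuts fibrinogen into fibrin. Several of these proteases are modified by a vitamin K-dependent carboxylase before secretion, and inhibitors such as antithrombin and protein C restrain them. In complement, lectins or antibodies activate proteases that cleave C4, C2 and C3, and the terminal components assemble into a pore. Hepatocytes make most of these proteins, while C1q comes largely from macrophages, and several members are acute phase genes driven by C/EBP and STAT3.

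Signals are MAS5 intensities in arbitrary units, on the scale the authors deposited. The signals of different probe sets cannot be set against each other as levels, so each value is compared only with the same probe set on the other array. A log2 ratio is that of the array labelled MAOO over the array labelled OO. The targeted gene, Apoe, read 407.7 on the array labelled OO and 7630.0 on the array labelled MAOO, 18.7-fold higher, with 1 probe set. That goes against a shared knockout for the array labelled MAOO. Whether the probe set reads a stretch that the knockout keeps is not known here, but by the labels such a stretch would be present on both arrays. Every direction below is between arrays as labelled. Across 5911 measured genes the median log2 ratio was -0.0098, and the interquartile range ran from -0.13 to 0.12. Probe sets for the same gene, read within the same hybridisations, differed in log2 ratio with an SD of 0.23 over 1814 genes. They can read different transcripts of a gene and are not technical repeats. This SD pools dim and bright genes, serves below as a scale of size only, and does not measure variation between arrays or mice.

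Promoter sequences, 250 bases before to 50 after the annotated start, were found in the RefSeq-derived table (build GRCm38.p6) for 27 of the 35 members. They are shown for the 2 fibrinogen genes that share motifs, for the 2 members furthest above equal signal, Proz and C9, and for C1ra and C1rb, whose common probe set stood furthest from equal. Capitals mark matches, on either strand and with overlaps allowed, to short strings of bases. These are GTTAAT (a part of the HNF1 site), TTGCNNAA (C/EBP), TTCNNNGAA (STAT), CAAAGTCCA (HNF4) and TATAAA (core promoter box). An HNF1 match below is to GTTAAT only and not to a whole HNF1 site. The Fga window is chr3:83025903-83026202 on the plus strand, and the Fgb window is chr3:83049814-83050113 on the minus strand. Proz lies at chr8:13060658-13060957, C9 at chr15:6445096-6445395, C1ra at chr6:124512371-124512670 and C1rb at chr6:124570180-124570479, all on the plus strand. Each sequence runs 5′ to 3′.
Fga promoter: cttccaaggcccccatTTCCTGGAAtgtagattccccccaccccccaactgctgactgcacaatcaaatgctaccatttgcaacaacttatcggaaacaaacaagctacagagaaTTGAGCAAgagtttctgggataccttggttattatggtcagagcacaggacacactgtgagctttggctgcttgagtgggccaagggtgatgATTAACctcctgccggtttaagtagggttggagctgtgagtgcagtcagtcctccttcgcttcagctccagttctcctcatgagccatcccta
Fgb promoter: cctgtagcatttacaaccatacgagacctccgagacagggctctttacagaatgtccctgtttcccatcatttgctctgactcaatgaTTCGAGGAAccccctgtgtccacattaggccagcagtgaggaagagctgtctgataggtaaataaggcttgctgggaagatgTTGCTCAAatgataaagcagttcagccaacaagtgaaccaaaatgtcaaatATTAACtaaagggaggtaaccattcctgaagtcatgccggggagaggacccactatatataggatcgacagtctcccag
Proz promoter: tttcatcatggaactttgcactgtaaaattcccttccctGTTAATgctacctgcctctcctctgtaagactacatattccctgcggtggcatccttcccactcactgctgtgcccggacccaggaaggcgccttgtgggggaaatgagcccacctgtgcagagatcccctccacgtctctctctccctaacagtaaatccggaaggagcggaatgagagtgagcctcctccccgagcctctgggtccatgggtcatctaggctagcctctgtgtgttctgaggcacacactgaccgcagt
C9 promoter: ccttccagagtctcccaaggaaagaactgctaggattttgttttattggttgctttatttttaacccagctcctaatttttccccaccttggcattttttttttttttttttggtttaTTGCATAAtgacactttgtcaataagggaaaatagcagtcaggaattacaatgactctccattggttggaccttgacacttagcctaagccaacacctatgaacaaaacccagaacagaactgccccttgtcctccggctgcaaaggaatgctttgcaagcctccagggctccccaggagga
C1ra promoter: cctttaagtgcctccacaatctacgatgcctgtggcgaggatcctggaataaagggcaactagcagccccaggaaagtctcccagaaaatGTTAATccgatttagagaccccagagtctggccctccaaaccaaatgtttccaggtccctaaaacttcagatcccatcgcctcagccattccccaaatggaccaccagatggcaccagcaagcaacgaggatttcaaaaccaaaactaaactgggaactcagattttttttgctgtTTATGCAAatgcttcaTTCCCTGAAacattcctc
C1rb promoter: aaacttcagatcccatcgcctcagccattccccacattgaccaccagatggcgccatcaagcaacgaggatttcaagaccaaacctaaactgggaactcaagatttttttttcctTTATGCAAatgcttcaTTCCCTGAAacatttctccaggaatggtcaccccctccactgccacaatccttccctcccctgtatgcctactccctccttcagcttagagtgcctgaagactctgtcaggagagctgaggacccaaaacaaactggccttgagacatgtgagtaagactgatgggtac

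Fga and Fgb, picked because they share motifs, each held 1 HNF1 match, 1 C/EBP match and 1 STAT match. The promoter of Fgg, the third fibrinogen gene, held 0 matches of any kind. The HNF1 matches began at base -43 of Fga and -29 of Fgb, counted from the annotated start. Proz had only an HNF1 match, at base -211, and C9 only a C/EBP match, at base -132. C1ra and C1rb are near-copies: 150 aligned columns of their windows were 92.7% identical. The C/EBP and STAT matches of both lie within that stretch. They fall after the annotated start in C1ra (C/EBP at base 17) and before it in C1rb (C/EBP at base -135). Among the 27 members, 9 (33.3%) had the HNF1 letters against 7.1% of 32851 promoters in the table, 7 (25.9%) the C/EBP letters against 10.8%, and 6 (22.2%) the STAT letters against 8.3%. The HNF4 letters occurred in 0 of the 27 (0.475% of all promoters) and TATAAA in 2 (13.6% of all promoters). Members were counted by gene, with a match in any of its promoters, while the shares of all promoters count each promoter singly. The percentages are thus not of like units. These matches are a description of the sequence and show no binding.

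Across both systems the signals of most members differed by less than 1.1-fold between the arrays. Of the 35 members, 0 were at least 1.5-fold apart, a size reached by 3.05% of all measured genes (1.47% higher and 1.57% lower on the array labelled MAOO). A difference of at least 2-fold was likewise seen in 0 members and in 0.609% of measured genes. Shares this small leave few or none to be seen among 35 genes, so these counts of 0 do not set the members apart. At 1.2-fold there was 1, Proz, on the higher side, where 9.47% of measured genes lay (19.0% either way). Dim genes weigh on that share: 28.4% of other genes with a mean signal under 200 were at least 1.2-fold apart, but 10.6% from 1000 to 2000, 8.23% from 2000 to 5000 and 3.15% at 5000 or more, the classes that hold 27 of the 35 members. At 1.1-fold there were 4 higher and 3 lower, against 21.8% and 23.4% of measured genes (45.2% either way), so that 28 members (80%) lay within 1.1-fold. The median distance from equal signal was 0.060 on the log2 scale for members and 0.12 over all measured genes. In whole liver, fewer cells of a type and less RNA per cell cannot be told apart in any of these values. After Proz, the members furthest from equal were C6 (1.19-fold) and C9 (1.17-fold). In direction, 24 members read lower on the array labelled MAOO and 11 higher, where 52.0% of all measured genes read lower and 48.0% higher. That split was 18 lower and 16 higher after quantile normalization, and 18 and 17 after removal of the trend on signal, so the lean towards lower values was not kept by those scalings.

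**Figure D1:**
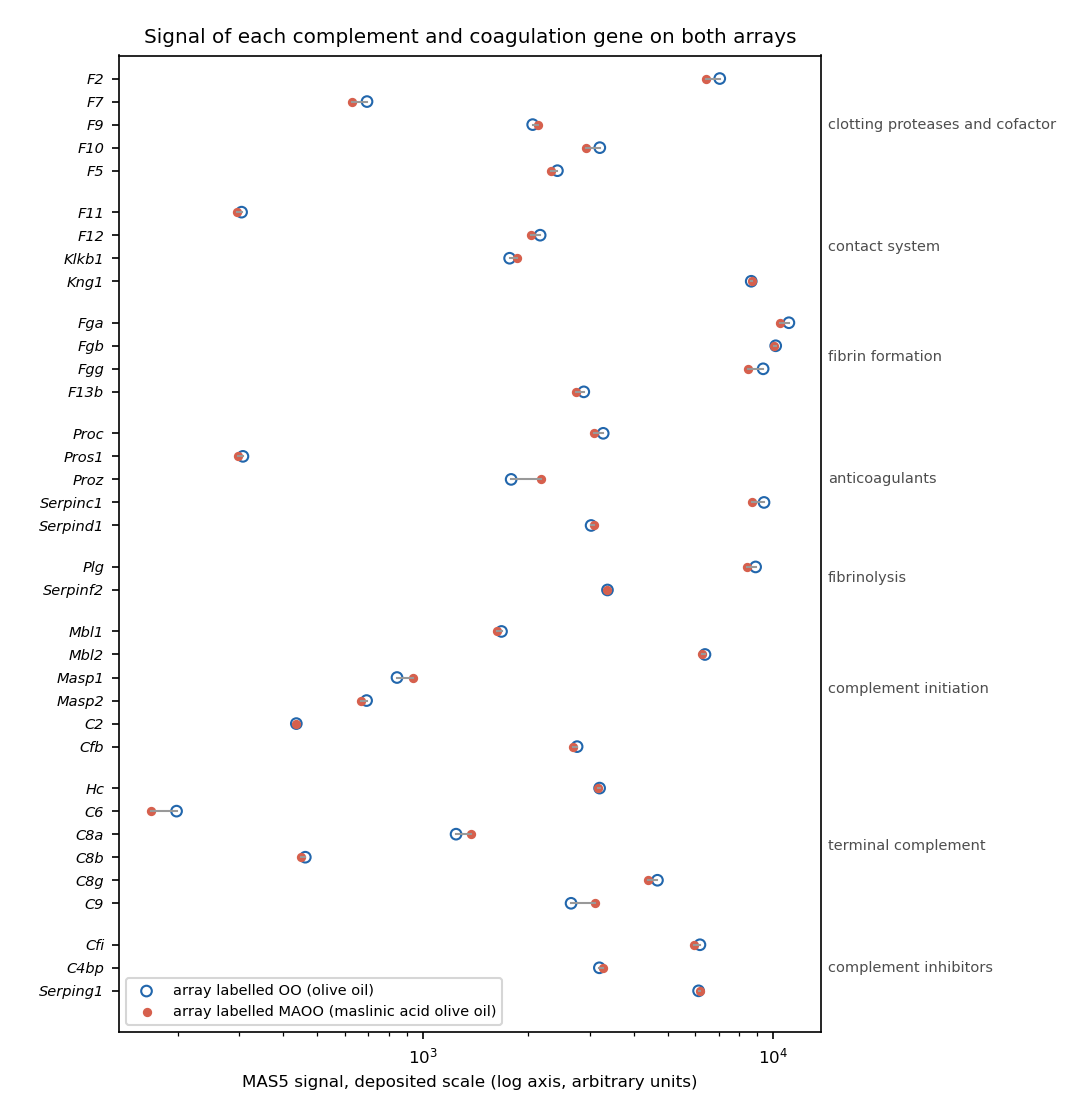
MAS5 signal of the probe set used for each of the 35 genes (log axis, deposited scale, arbitrary units), grouped by role, with 1 open circle for the array labelled OO and 1 filled point for the array labelled MAOO. The points of a gene nearly coincide in most rows, with the widest gaps at Proz (1.21-fold), C6 and C9; positions of different genes along the axis cannot be compared as levels.

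The clotting proteases and their cofactor came first. F2, which encodes prothrombin, the precursor of thrombin, read 7040.3 on the array labelled OO and 6415 on the array labelled MAOO, a log2 ratio of -0.13. F7, the protease that tissue factor activates, read 693.7 and 626.6 in the same order, a log2 ratio of -0.15. F10, whose product converts prothrombin, read 3201 and 2925 with the probe set used, a log2 ratio of -0.13. The further F10 probe sets gave -0.062 and 0.096, so the sign was not shared by all 3. F9, the factor missing in haemophilia B, lay on the other side with 2060 and 2138, a log2 ratio of 0.054. F5, the cofactor of F10, read 2424 and 2325 (-0.060), and its other probe set gave -0.19. All of these gaps are smaller than the SD of 0.23 between probe sets of a gene.

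Proz was the member furthest from equal signal. It encodes protein Z, a vitamin K-dependent cofactor that helps a serpin inhibit activated F10. Its probe set read 1788 on the array labelled OO and 2172 on the array labelled MAOO, 1.21-fold higher, a log2 ratio of 0.28. The Proz gene's further probe set gave signals of 289.5 and 336.2, a log2 ratio of 0.22 in the same direction. Between settings Proz stayed between 0.25 and 0.31. In the gene table F7, F10 and Proz are direct neighbours on chromosome 8, with 0 protein-coding genes between them, and only Proz of these 3 was higher on the array labelled MAOO with the probe set used. Serpina10, the serpin that protein Z assists, was measured among the other coagulation genes and had a log2 ratio of 0.079, a gene named after its value was seen.

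The remaining vitamin K-dependent members are anticoagulants. Proc, the protein C gene, read 3274 and 3074 (log2 ratio -0.091). Pros1, which encodes its cofactor protein S, read 307.0 and 297.6 (-0.045). Of the 7 vitamin K-dependent genes, 5 read lower and 2, F9 and Proz, higher, with a median of -0.091 against -0.0098 over all measured genes. The enzymes that serve them were also measured. Ggcx, the carboxylase itself, read 188.0 and 215.6, a log2 ratio of 0.20, and Vkorc1, which recycles vitamin K and was named after its value was seen, had -0.057.

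Contact system genes went both ways. F12, the protease that surfaces activate, read 2164 and 2040 (log2 ratio -0.085), and F11, its substrate, read 304.3 and 296.0 (-0.040). Klkb1, the plasma prekallikrein gene, read 1770 and 1862 (0.073). It is the direct neighbour of F11. Kng1, the kininogen gene from which bradykinin is released, read 8657 and 8695 (0.0063), while its other probe set read 4495 and 3948 (-0.19). These 2 readings of Kng1 gave no common direction.

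For fibrin formation, the 3 fibrinogen chain genes sit side by side on chromosome 3. Fga, the alpha chain gene, read 11088 and 10485 (log2 ratio -0.081). Fgb, the beta chain gene, read 10168 and 10076 (-0.013), and Fgg, the gamma chain gene, read 9363 and 8458 (-0.15). The chains are made in equal numbers in the assembled protein, and the spread of their log2 ratios, from -0.15 to -0.013, was within the SD between probe sets. F13b, the carrier subunit of the enzyme that cross-links fibrin, read 2882 and 2740.0 (-0.073). All 4 genes read lower on the array labelled MAOO, but Fga and Fgb read higher there after quantile normalization (0.081 and 0.12) and after removal of the trend on signal (0.010 and 0.075).

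Among inhibitors and fibrinolysis, Serpinc1, the antithrombin gene, read 9417 and 8694 (log2 ratio -0.12). Serpind1, the heparin cofactor II gene, read 3024 and 3075 (0.024). Plg, which encodes plasminogen, the precursor of the fibrin-dissolving protease, read 8911 and 8407 (-0.084). Its inhibitor gene, Serpinf2, read 3367 and 3363 (-0.0017), one of the closest pairs of signals among the coagulation genes. Of the 7 measured genes for anticoagulants and fibrinolysis, Proc, Pros1 and Proz included, 5 read lower and 2 higher.

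**Figure D2:**
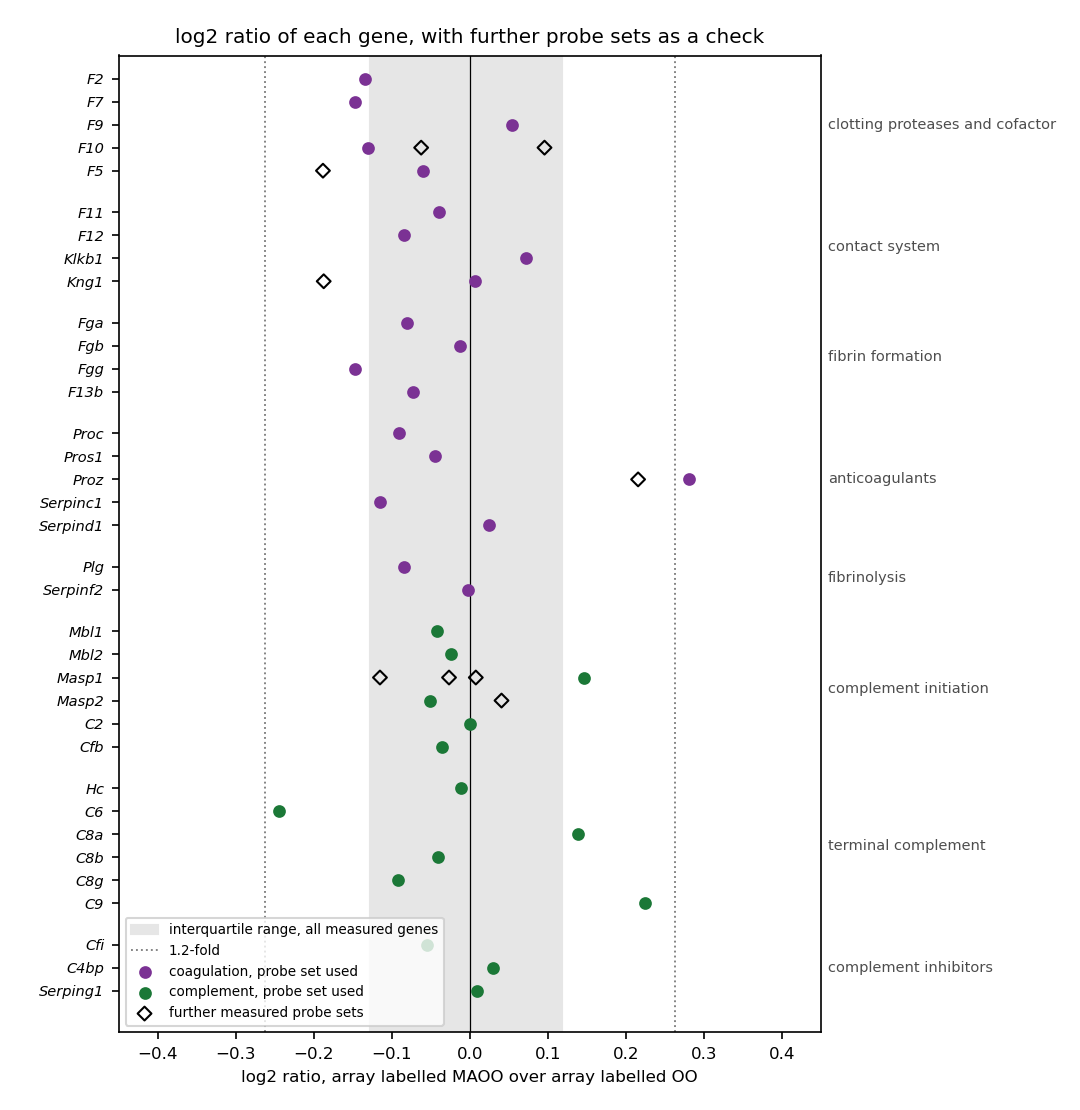
log2 ratio (array labelled MAOO over array labelled OO) of the probe set used for each gene, purple for coagulation and green for complement, with further measured probe sets as open diamonds; the grey band is the interquartile range of all 5911 measured genes and dotted lines mark 1.2-fold. Of the 35 filled points 26 lie inside the band and only Proz passes a dotted line, and the diamonds of F10, Kng1, Masp1 and Masp2 fall on both sides of 0 together with their filled points.

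Complement initiation genes followed. Mbl1 and Mbl2 encode the mannose-binding lectins, which recognise microbial sugars. Mbl1 read 1679 and 1631 (log2 ratio -0.042), and Mbl2 read 6390 and 6286 (-0.024). Masp2, the lectin-associated protease that cleaves C4 and C2, read 691.8 and 667.5 (-0.052), with its other probe set at 0.041. Masp1, the partner protease, read 844.8 and 935.4 with the probe set used (0.15), but the 3 further measured probe sets gave 0.0077, -0.027 and -0.12. Its remaining probe set, at 6.9 and 12.0, was under the floor on both arrays. The gene is known to yield several products by alternative splicing, and which of them each probe set reads is not known here. C2 read 436.0 and 436.1, the closest pair among all members. Cfb, the alternative pathway protease beside it in the genome, read 2758 and 2690 (-0.036). C4b has no probe set of its own, and the probe set that names C4a with C4b read 5046 and 4893 (-0.045).

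Terminal complement genes held the widest spread of any role group, with an SD across genes of 0.17. C9, which forms the bulk of the membrane pore, read 2651 on the array labelled OO and 3097 on the array labelled MAOO, a log2 ratio of 0.22. C6, an early partner in the same pore, read 198.5 and 167.5, a log2 ratio of -0.24. The C6 probe set is dim, in a range of mean signal under 200 where 28.4% of other genes were at least 1.2-fold apart. C8a and C8b, neighbouring genes for chains of C8, had log2 ratios of 0.14 (1245 and 1370.3) and -0.040 (462.5 and 449.8). C8g, the third chain, read 4676 and 4386 (-0.092). Hc, the mouse gene for C5, read 3197 and 3174 (-0.011). Of these 6 genes 4 read lower and 2 higher, a balance that became 3 and 3 after quantile normalization and after removal of the trend on signal. Each has 1 probe set, so none of the values has a second reading.

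The complement inhibitor genes lay close to equal. Cfi, the protease that inactivates C3b and C4b, read 6181 and 5953 (log2 ratio -0.054). C4bp, its cofactor for C4b, read 3192 and 3260 (0.030). Serping1, the C1 inhibitor, which also inhibits contact system proteases, read 6126 and 6167 (0.0096).

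Among the probe sets of complement and coagulation genes, the largest difference came from 1 that names 2 genes for a protease of the C1 complex. C1r starts the classical pathway by cleaving C1s, and mice carry 2 copies of its gene, C1ra and C1rb, with 1 protein-coding gene between them on chromosome 6. The probe set that names C1rb and C1ra together read 405.2 on the array labelled OO and 1185 on the array labelled MAOO, 2.92-fold higher, a log2 ratio of 1.55. It was the highest of 388 measured probe sets that name several genes, 3 of which (0.773%) were at least 2-fold higher, beside 0.305% of measured genes. The probe set that names C1ra alone read 814.4 and 764.4, a log2 ratio of -0.091. The 2 readings thus disagree, and no probe set names C1rb alone. The shared probe set is of the _x_at kind, whose probes can match other transcripts, and 1.25% of 718 measured _x_at probe sets naming 1 gene were at least 2-fold higher. C1s1, the gene for the protease that C1r cleaves, read 1282 and 1445 (0.17). Which transcript gave the gain of signal was not tested.

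**Figure D3:**
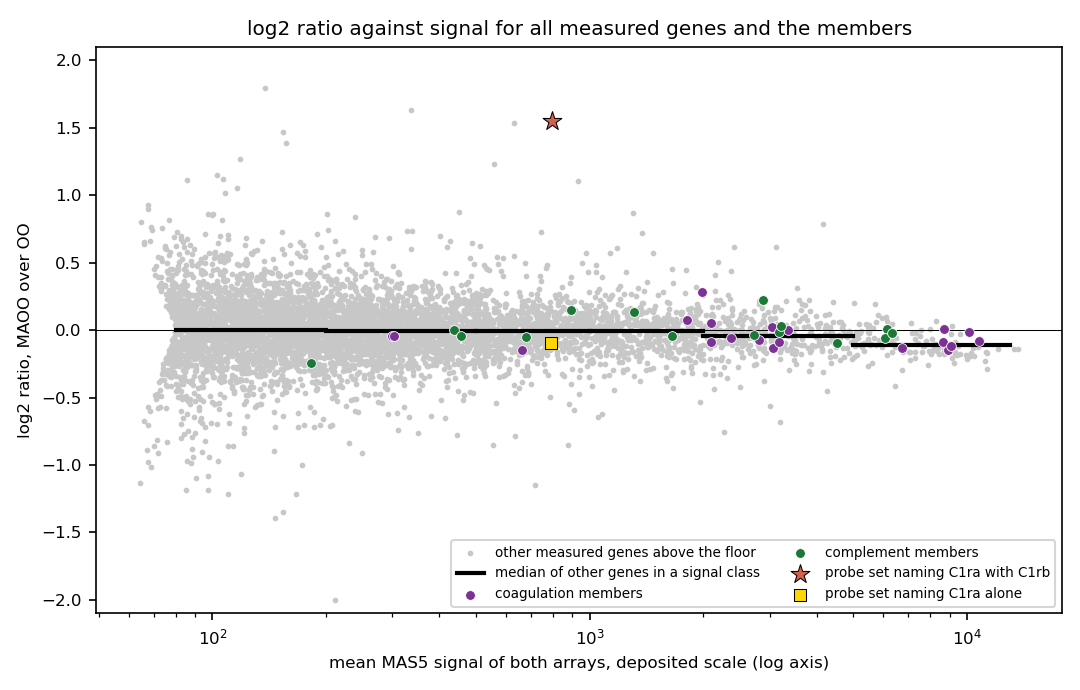
log2 ratio against the mean MAS5 signal of both arrays (log axis) for 5904 measured genes above the floor, with the members coloured by system, a star for the probe set naming C1ra with C1rb, a square for C1ra alone and black bars for the median of other genes in each signal class; 2 genes lie outside the vertical axis. The members stay near 0 where the grey cloud narrows, the black bars drop to -0.11 at signals of 5000 or more, and the star lies at 1.55 while the square lies at -0.091.

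The coagulation genes were then set against the complement genes. The median log2 ratio was -0.066 over 20 coagulation genes and -0.024 over 15 complement genes, a difference of -0.043. For coagulation the interquartile range ran from -0.097 to 0.00026, and for complement from -0.047 to 0.020, so the ranges overlapped. Of the coagulation genes 15 of 20 read lower on the array labelled MAOO, and of the complement genes 9 of 15. The difference is smaller than the SD across genes within either system (0.099 and 0.11), and with 1 array per diet it cannot be tested. Its sign was negative under all 13 alternatives that give it, between -0.019 (quantile normalization) and -0.066 (mean of all probe sets of a gene). Several of these could not change the difference and gave -0.043 again. Deposited scaling and equal medians shift the log2 ratio of every member by the same amount. The other floors and minimums, and leaving out probe sets of the _x_at and _s_at kinds, kept every member's value as it was. The complement median itself turned to 0.0018 after quantile normalization and 0.013 after removal of the trend on signal.

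Signal strength moved with these medians. Among other genes with a mean signal of 5000 or more the median log2 ratio was -0.11 and 85.8% of 127 genes read lower, while from 2000 to 5000 the median was -0.040 (328 genes). The 10 members at 5000 or more had a median of -0.067 with 8 lower, and the 13 members from 2000 to 5000 a median of -0.036 with 9 lower. Within the upper class the 7 coagulation genes had a median of -0.084 and the 3 complement genes -0.024, and from 2000 to 5000 the medians were -0.066 (8 genes) and -0.011 (5 genes). From 1000 to 2000 the order was the opposite, with medians of 0.18 over 2 coagulation genes and 0.048 over 2 complement genes.

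**Figure D4:**
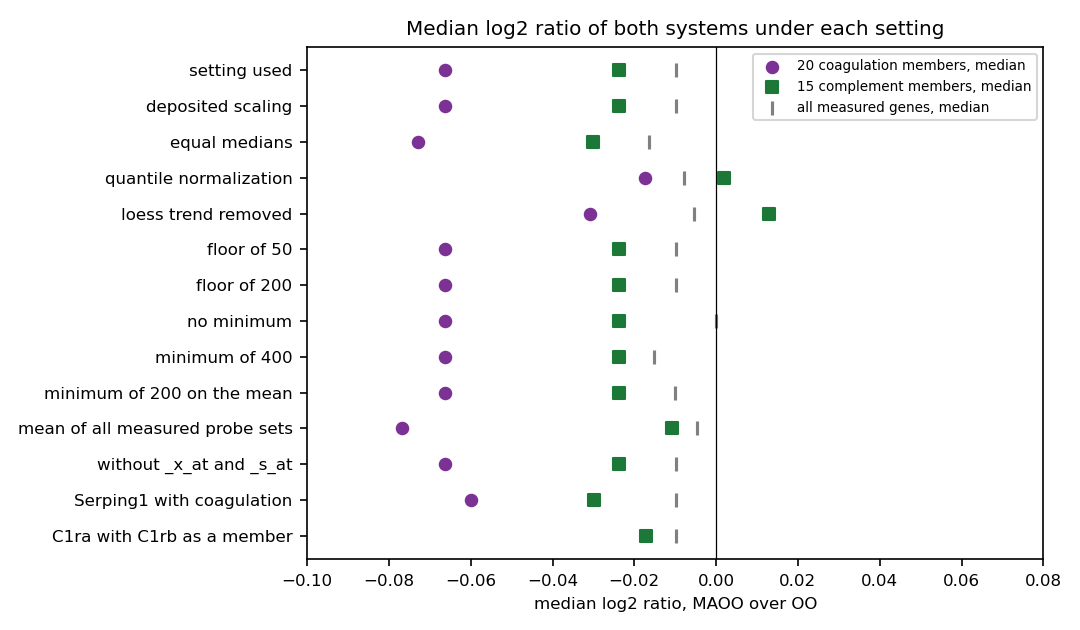
Median log2 ratio (array labelled MAOO over array labelled OO) of the 20 coagulation genes (circles), the 15 complement genes (squares) and all measured genes (ticks) under the setting used and each alternative; moving Serping1 makes the groups 21 and 14, and counting the probe set naming C1ra with C1rb makes 16 complement readings. Circles lie left of squares in every row that has both, and squares cross 0 only with quantile normalization (0.0018) and with the trend on signal removed (0.013). In several rows the gap between them could not change, since the setting shifts all members alike or leaves them as they were.

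Other genes of both systems were taken from lists chosen for this comparison. Of 33 further complement genes 20 were named alone and 14 measured, with 7 higher, 7 lower and a median of 0.0040. They were more spread than the 35 members, with an SD across genes of 0.23 against 0.10, but not more than all measured genes (0.26). At least 1.1-fold higher were 5 and at least 1.1-fold lower 3, where 21.8% and 23.4% of measured genes lay. At least 1.2-fold apart, where 19.0% of measured genes lay, were C1qb and Cd55. C1qb (1.35-fold higher on the array labelled MAOO) encodes a chain of the C1q recognition protein, and its 3 probe sets ranged from 0.096 to 0.43. Cd55, a membrane inhibitor of C3 convertases, read 110.3 and 74.5 (log2 ratio -0.57). Its mean signal is under 200, where 28.4% of other genes were at least 1.2-fold apart. Cfp, the properdin gene, had a log2 ratio of -0.17. The other C1q chain genes, C1qa and C1qc, named after their values were seen, had 0.17 and -0.093. Of 42 further coagulation genes 36 were named alone and 22 measured, with 10 higher, 12 lower and a median of -0.032, which turned to 0.0064 with quantile normalization, and an SD across genes of 0.17. Fgl2, a prothrombin-cleaving enzyme of macrophages and endothelium, stood alone at 1.5-fold or more with the probe sets used, a size reached by 3.05% of measured genes. It read 66.2, under the minimum, and 101.6 (0.62). Further probe sets of F2r and Lman1, named after their values were seen, reached 0.77 and -0.65. Itih2, an inter-alpha-trypsin inhibitor chain, and Apoh, a phospholipid-binding plasma protein, had log2 ratios of -0.20 and -0.16.

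Transcription factors that act on liver genes were listed as well. Of 19 listed, 15 were measured, 11 of which read lower and 4 higher, with a median log2 ratio of -0.17. At least 1.2-fold lower were 5 of the 15, against 9.52% of all measured genes, and these counts were the same under quantile normalization, equal medians and removal of the trend on signal. Foxa3, a forkhead factor of hepatocytes, read 479.6 and 357.3 (-0.42). Ppara, the fatty acid receptor, read 1541 and 1187 (-0.38). Cebpb and Cebpd, which drive acute phase genes, had -0.33 (1254 and 998.3) and -0.38 (126.0 and 96.7), and the other probe set of Cebpb gave -0.23. Stat3 had -0.28 and Hnf4a -0.22 with the probe sets used, but their further probe sets reached 0.025 and 0.64. The 4 that read higher were Rora (0.21), Cebpa (0.15, at 1403 and 1561), Rxra (0.088) and Nr1h4 (0.047). Other probe sets of Rora and Rxra gave -0.18 and -0.32. C/EBP genes thus went both ways. Stat3, Hnf4a and these 4 were named after their values were seen.

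Cell type markers were read beside the members. All 10 measured hepatocyte markers of 12 listed read lower on the array labelled MAOO, with a median of -0.17 and summed signals of 95311 and 84897 on the arrays labelled OO and MAOO. Their median was -0.051 with quantile normalization, where 8 of 10 were lower, and -0.096 after removal of the trend on signal, where all 10 were. The median of the 35 members, which are made mainly by the same cells, was -0.040. The markers were read by brighter probe sets, with a median signal of 9234 against 2874 for the members. Of other genes at 5000 or more, 85.8% read lower, with a median of -0.11 and an interquartile range from -0.16 to -0.036. Most of the markers are themselves among those genes. Tat and Hnf4a, read by probe sets under 5000, had -0.14 and -0.22, where other genes from 2000 to 5000 had a median of -0.040. Of 13 Kupffer cell and macrophage markers 11 were measured, 6 higher and 5 lower, with summed signals of 12098 and 12057. These sums hide a wide spread (SD across genes of 0.64), from the scavenger receptor gene Marco at 338.1 and 84.6 (log2 ratio -2.0), the lowest of all measured genes, to C1qb at 0.43. The 7 measured endothelial markers of 9 all read lower (sums of 2806 and 2552). Of the 7 measured stellate cell markers of 10, 5 read higher and 2 lower, with a median of 0.21. Their sums, 3740.0 and 3667, fell nonetheless, since Dcn (2067 and 1810) weighs most in them. The 3 measured lymphocyte markers of 9 read higher (sums of 1919 and 2990.1). They were Ighm, an immunoglobulin gene (322.9 and 936.2), and the antigen presentation genes Cd74 (805 and 937.4) and H2-Aa (790.9 and 1116.5). The T and B cell markers Cd3e, Cd3g, Cd79a and Ms4a1 were under the floor on both arrays. Cd79b, another B cell marker, read 30.8 and 44.6, just above the floor on the array labelled MAOO only. Marker genes are named here after their values were seen. Of the erythroid and platelet markers only Alas2 and Pf4 were measured, and 0 of 4 cholangiocyte markers were. Their part in the values of the members was not tested.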

How the data were processed

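Liver RNA was hybridised to 1-colour Affymetrix arrays, 1 for each diet. The deposited values are linear intensity signals per probe set that, per the submitters' processing notes, come from MAS5. Its version and settings are not stated, and detection calls were not used. Their 2% trimmed mean was 200.1 on both arrays, in values of 22690 probe sets. Genes were named through the platform annotation, and all 35 members were found by Entrez number in a gene table of GRCm38.p6.

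Signals were rescaled to a 2% trimmed mean of 500 and floored at 100 (40.0 on the deposited scale). A gene was read by its probe set with the highest mean signal and counted as measured at 200 or more (80.0 deposited) on at least 1 array. Precision is limited by the number of arrays. The steps were tested on simulated data, with planted changes in bright genes that were far larger than the differences of the members. That test does not cover differences as small as theirs. Alternatives were other scalings, floors, minimums, probe set choices and group assignments. All members are named; of the other lists, up to 4 measured genes with the largest absolute log2 ratio, and genes outside this rule are said to be named after their values were seen. Members and lists were chosen with earlier results of these data known, and sizes of 1.1-fold and 1.2-fold after the values were seen. Python 3.11.15, pandas 2.3.3, scipy 1.17.1 and statsmodels 0.14.6 (loess, span 0.4) were used.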

Additional observations from a re-analysis of the deposited data

Results flagged for a closer look

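The probe set naming C1rb with C1ra lies outside the gene comparison, since it names 2 genes, and it read above the array labelled OO. Its signal was 405.2 there and 1184.6 on the array labelled MAOO, 2.92-fold apart, whereas the probe set naming C1ra alone read 814.4 and 764.4. No explanation of the gap was tested.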

How the results depend on the processing

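No paired analysis was possible because only 1 array stands for a diet, and no array could be left out for the same reason. The 35 members gave 385 values under 11 alternatives of scaling, floor, minimum and probe set. All 385 moved by less than the SD of 0.23 between probe sets of a gene, by 0.16 at most, and 14 changed sign: Fga, Fgb, Serpinf2, Hc and Mbl2 with quantile normalization and with the trend on signal removed, Cfi with the trend removed, Kng1 and C2 with equal medians, and Kng1 with the mean of its probe sets. The count of members at least 1.5-fold apart was 0 throughout, except that it became 1 when the probe set naming C1ra with C1rb was counted as a member. With Serping1 counted among the coagulation genes the medians were -0.060 and -0.030. Rescaling from the deposited values, a floor of 50 or 200 and the minimums could change little, since the deposited trimmed means were already equal and all members lie above these limits.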
